A study of Mus musculus and synthetic construct with 9 samples.

Results

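This massively parallel reporter assay (MPRA) tested human sequences with either allele of a single nucleotide polymorphism (SNP). With the alternate allele 31 elements reached a cut on activity, and with the reference allele they stayed at or under a lower cut. Both cuts are relative to the median sequence. A low reference allele was not always inactive, and 6 were called active in another culture. They were chosen on their measured activity in standard culture. In each of 5 RNA libraries and 5 plasmid libraries of that culture the barcode counts of an element were summed, and r was taken as log2 of summed RNA over summed plasmid, minus its median over sequences with at least 500 plasmid counts. An element was a member when both alleles had at least 500 plasmid counts, the alternate allele had an r of 0.4 or more (1.32 times the median sequence) and the reference allele an r of 0.2 or less (1.15 times). Of 6628 SNP pairs in the table of 13628 sequences, 6248 had enough plasmid counts and 31 met the rule. Because standard culture values chose the members, they are given as a description without a test, and tests were made in other cultures.

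Every element held 200 bases of human genomic sequence in front of a minimal promoter, and its transcript carried barcodes that name the element. The plasmid library was transfected into MIN6, a mouse β cell line, so human sequences were read by mouse transcription factors in all groups. Standard culture received no change of medium. The other cultures received, 6 h after transfection, medium with 0.025% DMSO, or the same DMSO medium with 250 nM thapsigargin (Tg), and cells were collected at 30 h. DMSO and Tg each had 5 RNA libraries, from cultures transfected on separate days, and were read against 5 plasmid libraries of a second preparation. The study grew that preparation from the first in bacteria, so all cultures share the pairing of barcodes with elements. Effects of the barcodes themselves were not tested. Total counts were 19851799 to 30938393 per standard RNA library, 28896082 to 33325429 per DMSO library, 29968043 to 44899256 per Tg library and 23009482 to 36129587 per plasmid library of the second preparation. The tables hold reporter sequences and no cellular genes, so the cell label could not be checked in them.

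An MPRA reads what a short sequence can do outside its chromosome. A base change can raise activity by creating a site for an activator or by removing a site for a repressor, and the assay does not tell these apart. Thapsigargin blocks the calcium pump of the endoplasmic reticulum (ER), which disturbs protein folding and starts the unfolded protein response. β cells are prone to this stress because they make large amounts of insulin. Many SNPs of the library were linked to type 2 diabetes (T2D) or to proinsulin levels, and others were chromatin accessibility quantitative trait loci (caQTLs) of human islets. A locus name below says where a SNP lies, not which gene it acts on, since no cellular gene was measured.

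The bases around the SNP are shown for 5 members, read from the sequences of the study, because they hold the base by which the low and the active allele differ. Each line gives 21 bases of the hg19 plus strand, 5′ to 3′, with the SNP base in capitals at position 11. The substitutions were C11T for rs17748864, A11G for rs10778949, T11C for rs12201218, G11A for rs10875179 and T11C for rs13096599.

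rs17748864 (PEX5L locus, chr3:179649501-179649521), reference: tacagcacagCccaattaact
rs17748864, alternate: tacagcacagTccaattaact
rs10778949 (chr12:83612854-83612874), reference: tattgacttaAcctggatcgg
rs10778949, alternate: tattgacttaGcctggatcgg
rs12201218 (chr6:66653609-66653629), reference: tctctagaaaTgaaaggtaga
rs12201218, alternate: tctctagaaaCgaaaggtaga
rs10875179 (SNX7 locus, chr1:99200188-99200208), reference: catgattactGctgttactgt
rs10875179, alternate: catgattactActgttactgt
rs13096599 (KBTBD8 locus, chr3:66848799-66848819), reference: ggacaatgatTtccccaggat
rs13096599, alternate: ggacaatgatCtccccaggat

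The letters of 16 short motifs were searched on both strands of these windows, counting matches that cover the SNP base. They were TGACG (cyclic AMP response element core site), TGACTCA (AP-1), TGACGTCA (cyclic AMP response element), GCTGA (MAF core site), TGTTT (FOX core), CANNTG (E-box), GGAA (ETS core), CCAAT (NF-Y), GGGCG (SP and KLF), ATTA (homeobox core), GTTGC (RFX core site), TTGCATCA (ATF4 and CHOP composite), GTTAAT (HNF1 core site), AGGTCA (nuclear receptor core site), CACGTG (MYC and USF E-box) and the dinucleotide CG. Some of these overlap: the cyclic AMP response element contains its core site, the MYC and USF E-box is also an E-box, the HNF1 core site contains the homeobox core on its reverse strand, and CG also lies within the cyclic AMP response element, its core site, the SP and KLF motif and the MYC and USF E-box. The alternate allele of rs13096599 lost a GGAA, while that of rs12201218 gained a CG. No other motif was gained or lost in the 5 windows shown, including those of the members with the highest activity, rs17748864 and rs10778949. Around rs17748864 the letters CCAAT, ATTA and GTTAAT lay beside the SNP in both alleles. Windows could be joined mainly for SNPs that the study called allelic in this assay and whose alleles it predicts to change a motif. They are thus not a sample of all SNPs tested. Among 101 windows of the series that could be joined in this way, 45.5% held a CG anywhere, 18.8% an ATTA, 12.9% a GGAA, 10.9% a GCTGA, 5.94% a CANNTG, 5.94% a TGTTT, 3.96% a CCAAT, 3.96% a GGGCG, 2.97% a GTTGC, 1.98% a TGACG, 0.99% a TGACTCA and 0.99% a GTTAAT, and 0 of 101 held TGACGTCA, TTGCATCA, AGGTCA or CACGTG with the reference base. The alternate base created AGGTCA in 2 of the 101 windows and CACGTG in 2, and neither in a window shown. Counted at the SNP base over the 101 windows, a CG was gained in 16 and lost in 26. A GGAA was gained in 3 and lost in 4. Alleles were listed for 18 members, of which 15 were transitions and 3 transversions, or 83.3% transitions beside 68.3% of the 3146 single base changes listed for the series.

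In standard culture, r of the alternate allele ran from 0.41 to 3.25 with a median of 0.75, and r of the reference allele from -0.19 to 0.17 with a median of 0.02. The difference between alleles ran from 0.29 to 3.35, or from 1.22-fold to 10.2-fold, with a median of 1.67-fold. It was 4-fold or more for 3 members and 2-fold or more for 11. The members were thus mostly modest, with 14 alternate alleles at an r under 0.6, 6 from 0.6 to under 1, 8 from 1 to under 2, and 3 at 2 or more. Just inside the alternate threshold lay rs34343698 (0.407), rs10149880 (0.408) and rs781914 (0.431), and just outside it rs7567425 (0.378), rs200026175 (0.377) and rs113770243 (0.373). Just inside the reference threshold lay rs915181 (0.167), rs9434444 (0.165) and rs4812742 (0.145), and just outside it rs2072468 (0.201), rs7805512 (0.205) and rs2456506 (0.222). A standard culture RNA library that the rule did not use, read against 1 plasmid library that it also did not use, gave the alternate allele the higher value for 31 of 31 members, with differences of 0.11 to 3.32 and a median of 0.78. In that library the alternate allele was higher for 49.6% of 6501 SNPs.

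In DMSO, whose libraries did not enter the rule, the alternate allele was higher than the reference allele for 28 of 31 members at a false discovery rate (FDR) of 10% by limma, beside 4.03% of the 6501 SNPs tested. A count model that also carries the spread between plasmid libraries (edgeR, allele by RNA interaction) called 28 members as well, beside 4.25% of SNPs. In Tg the counts were 23 members by limma, beside 1.03% of SNPs, and 27 by edgeR, beside 2.02%. No member was called with the reference allele higher by limma in DMSO or Tg, and 0 had an unadjusted p under 0.05 in that direction. The median allelic effect of the members, as log2 of alternate over reference, was 0.74 in DMSO and 0.63 in Tg, beside 0.00 over all SNPs in both. Member effects ran from 0.08 to 3.37 in DMSO and from -0.24 to 3.48 in Tg, so not every member kept its direction in Tg. The alternate allele was above the reference allele in each of the 5 DMSO libraries for 28 members (9.63% of SNPs) and in each of the 5 Tg libraries for 29 members (7.23%). Every DMSO library of the alternate allele lay above every one of the reference allele for 27 members (3.89% of SNPs), and the same held in Tg for 26 members (2.45%).

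Values below are MPRA activities per library, log2 of RNA over the mean plasmid count, centred so that 0 is the median sequence. Libraries of DMSO and Tg are listed as numbers 1 to 5 and those of standard culture as numbers 2 to 6. The largest allelic effect belonged to rs17748864, a C to T change at the PEX5L locus, named for a peroxin-like protein that binds membrane channels. Its C allele read -0.43, -0.26, -0.12, -0.06 and -0.27 in DMSO, and its T allele read 3.17, 3.01, 3.13, 3.27 and 3.14. In Tg the C allele read -0.21, -0.21, -0.23, -0.19 and -0.07, and the T allele 3.32, 3.21, 3.34, 3.28 and 3.33. The alleles lay far apart in all 10 of these libraries, with the reference allele just under the median sequence. The T allele was 10.3-fold higher in DMSO (log2 3.37, SE 0.06, limma adjusted p = 6.26e-06) and 11.2-fold higher in Tg (log2 3.48, SE 0.05, limma adjusted p = 4.58e-06), after 10.2-fold in the standard culture that chose it. With the plasmid spread carried by edgeR, the SE was 0.07 in DMSO and 0.08 in Tg. For every SNP the DMSO and Tg folds rest on the same plasmid libraries, so a plasmid error enters both.

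The G allele of rs10778949, a member at chr12:83612864 that the study lists among islet caQTLs, followed. Its A allele read -0.01, 0.31, 0.08, 0.09 and 0.23 in DMSO, and its G allele read 2.85, 2.73, 2.90, 2.96 and 2.87. In Tg the A allele read 0.04, -0.09, -0.06, -0.19 and 0.12 and the G allele 3.01, 2.91, 3.09, 3.13 and 2.94. The alternate allele was 6.59-fold higher in DMSO (log2 2.72, SE 0.08, limma adjusted p = 3.91e-05) and 8.27-fold higher in Tg (log2 3.05, SE 0.08, limma adjusted p = 3.91e-05).

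The C allele of rs13130845 lies at chr4:6297646 in the signal at WFS1, which encodes an ER membrane protein whose loss causes a syndromic diabetes. Its A allele read -0.18, 0.08, 0.03, -0.15 and -0.13 in DMSO, and its C allele read 2.31, 2.18, 2.31, 2.38 and 2.42. In Tg the A allele read -0.14, 0.11, 0.13, -0.02 and -0.15 and the C allele 2.41, 2.45, 2.51, 2.61 and 2.26. The C allele was 5.25-fold higher in DMSO (log2 2.39, SE 0.08, limma adjusted p = 4.95e-05) and 5.5-fold higher in Tg (log2 2.46, SE 0.07, limma adjusted p = 3.91e-05).

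The T allele of rs76846759 lies at chr3:123158794 in a signal at ADCY5, which encodes an adenylyl cyclase that makes cyclic AMP. Its C allele ranged from -0.16 to 0.11 in DMSO and its T allele had a mean of 1.54 ± 0.03 (SD, n = 5), a 2.94-fold difference (log2 1.56, SE 0.05, limma adjusted p = 3.91e-05). In Tg the difference was 3.58-fold (log2 1.84, SE 0.06, limma adjusted p = 8.03e-05). The alternate allele of rs3115025 was 3.16-fold higher in DMSO and 3.46-fold higher in Tg.

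Members between 1.5-fold and 2.5-fold in DMSO followed the same direction. They included rs12604172 with 2.13-fold in DMSO and 2.65-fold in Tg, rs2049286 with 2.05-fold and 2.54-fold, and rs2483556, in an intron of the actin-binding protein gene ABLIM1, with 1.96-fold and 1.91-fold. The T allele of rs13405776 at the THADA locus was 1.9-fold higher in DMSO and 1.96-fold higher in Tg. The C allele of rs12201218, which gains a CG, was 1.82-fold and 1.98-fold higher. The G allele of rs1713547 at the RGS7 locus, named for a regulator of G protein signalling, was 1.69-fold and 1.95-fold higher. Each of these 6 was called by limma in both cultures, with adjusted p between 0.000331 and 0.0757. Others in this range, rs9434444, rs34343698 and rs10899095, were not called in Tg (limma adjusted p = 0.474, 0.334 and 0.169). Smaller effects called by limma in both cultures, with adjusted p between 0.00168 and 0.0654, were those of rs3756597 (1.56-fold in DMSO and 1.61-fold in Tg), rs884545 (1.5-fold and 1.54-fold), rs75019300 (1.45-fold and 1.43-fold), rs915181 (1.42-fold and 1.49-fold), rs4466185 (1.35-fold and 1.37-fold), rs56258811 (1.31-fold and 1.4-fold) and rs10149880 (1.22-fold and 1.31-fold).

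Other small members behaved less evenly. The C allele of rs13096599 at the KBTBD8 locus read 0.62, 0.47, 0.49, 0.66 and 0.69 in DMSO against 0.24, 0.22, 0.25, -0.02 and 0.11 for the T allele, a 1.35-fold difference (limma adjusted p = 0.0383). In Tg it was again 1.35-fold, but libraries of the alleles overlapped and limma gave an adjusted p of 0.12 (edgeR adjusted p = 0.0108). Likewise rs1824872, rs56318353 and rs62520495 kept 1.39-fold, 1.31-fold and 1.3-fold in Tg without a limma call, with edgeR adjusted p of 0.0405, 0.00499 and 0.0497. The member rs10899095, between SERPINH1 and MAP6, had 509 plasmid counts for its reference allele and was 1.61-fold higher with the alternate allele in DMSO (limma adjusted p = 0.0967) and 1.69-fold in Tg (limma adjusted p = 0.169). Its reference allele was not silent in DMSO, where it ranged from 0.39 to 1.52.

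Members that were not called in DMSO included rs10875179 and rs4812742. The A allele of rs10875179, in a proinsulin signal at the sorting nexin gene SNX7, read 0.27, 0.18, 0.29, 0.21 and 0.55 in DMSO against 0.14, 0.27, 0.00, 0.10 and 0.17 for the G allele, so the alleles overlapped (log2 0.16, SE 0.07, limma adjusted p = 0.31). In Tg it read 0.36, 0.56, 0.76, 0.69 and 0.46 against 0.08, -0.12, -0.05, -0.16 and 0.08, with no overlap (log2 0.60, SE 0.10, limma adjusted p = 0.0606). The alternate allele of rs4812742 ranged from 0.20 to 0.59 in DMSO against 0.26 to 0.36 for the reference allele (limma adjusted p = 0.59), and from 0.49 to 0.73 in Tg against 0.10 to 0.39 (limma adjusted p = 0.04). The difference between the cultures was not called for either SNP (limma adjusted p = 0.504 and 0.51).

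Each allele was then compared with its own plasmid counts by edgeR at an FDR of 1%, with active meaning RNA above plasmid. The alternate allele was active for 30 of 31 members in DMSO, beside 19.8% of the 13413 sequences tested, and for 29 in Tg, beside 12.8%. The exceptions included rs9434444 in Tg. The reference allele was active for 6 members in DMSO and for 1 in Tg. By these calls 24 members were active with the alternate allele only in DMSO, beside 4.55% of the 6501 SNPs. In Tg they were 28, beside 3.45%. These calls have no size threshold, while the rule asks for an r of 0.4 or more. The alternate allele of rs56318353, for example, was called active in DMSO at a log2 of 0.18. In DMSO the reference alleles called active were those of rs9434444, rs34343698, rs781914, rs4812742, rs915181 and rs10899095, and in Tg that of rs4812742. Against total counts instead of the TMM scale, the RNA over plasmid value of the median sequence fell by 0.73 in DMSO and by 0.80 in Tg on the log2 scale, and 16 and 11 alternate alleles were then called active, beside 3.19% and 1.98% of sequences. Activity is therefore given relative to the median sequence, while allelic differences within a library are not touched by this scaling.

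Of the alternate alleles, 5 were higher and 3 lower in Tg than in DMSO by edgeR at an FDR of 1%, beside 2.04% and 4.17% of all sequences. The alternate allele of rs9434444, at chr1:99199207, read 1.08, 1.21, 1.07, 1.19 and 1.22 in DMSO and 0.27, 0.11, 0.32, -0.08 and 0.27 in Tg. The libraries of the 2 cultures did not overlap, and the level was 1.94-fold lower in Tg (log2 -0.95, SE 0.06, edgeR adjusted p = 7.6e-20). The alternate allele of rs34343698 read 1.01, 1.45, 1.08, 1.15 and 1.35 in DMSO and 0.10, 0.28, 0.36, 0.41 and 0.27 in Tg, 1.88-fold lower (log2 -0.91, SE 0.07, edgeR adjusted p = 4.04e-16). That of rs781914 read 0.92, 1.20, 1.02, 1.04 and 0.95 in DMSO and 0.61, 0.48, 0.63, 0.59 and 0.40 in Tg, 1.38-fold lower (log2 -0.47, SE 0.05, edgeR adjusted p = 5.86e-10). All 3 are on a list of islet caQTLs that the study chose with these libraries, as are 9 of the 31 members. The list is limited to caQTLs with an allelic effect in this assay and holds 390 SNPs, beside 6628 SNP pairs in the series. Being on it is thus no independent trait of these elements. In standard culture the same alternate alleles ranged from 0.25 to 0.75, from 0.19 to 0.58 and from 0.34 to 0.51, with r under 0.6 for each. The standard and DMSO cultures used separate library preparations, and their levels were not compared by a test.

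Of the same 3 elements, the reference allele of rs9434444 was lower in Tg by 0.31 on the log2 scale (log2 -0.31, SE 0.06, edgeR adjusted p = 0.00019) and that of rs34343698 by 0.43 (log2 -0.43, SE 0.08, edgeR adjusted p = 5.13e-05). That of rs781914 was not called (log2 -0.17, SE 0.05, edgeR adjusted p = 0.0391). Among members 2 reference alleles were called lower by edgeR, beside 4.17% of all sequences. Called higher were 0, beside 2.04%, with 0 at an unadjusted p under 0.05 in that direction.

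The alternate alleles higher in Tg included those of rs76846759, rs10875179, rs2049286 and rs1713547. That of rs76846759 was at 1.58 or below in each DMSO library and read 1.72, 1.81, 1.85, 1.88 and 1.87 in Tg, 1.23-fold higher with no overlap (edgeR adjusted p = 1.04e-05). The rises of rs10875179 (1.22-fold, edgeR adjusted p = 0.00569), rs2049286 (1.19-fold, edgeR adjusted p = 0.00121) and rs1713547 (1.18-fold, edgeR adjusted p = 0.00437) were of similar size. The T allele of rs17748864 was 1.12-fold higher in Tg and was not called (edgeR adjusted p = 0.0376). Over the 31 alternate alleles the median change was 0.08 on the log2 scale, beside 0.01 over all sequences. The count of 5 was 3 without DMSO library 1 or 2 or Tg library 2 and 2 without Tg library 4, while the count of falls was 3 to 4 with any 1 library left out. With total counts in place of TMM 1 was higher, beside 1.08% of sequences.

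The test of the difference itself, whether the allelic effect was unequal in Tg and DMSO, called 1 member, beside 0.138% of SNPs. It was rs9434444, whose alternate minus reference differences were 0.78, 0.77, 0.63, 0.79 and 0.89 in DMSO and 0.06, 0.03, 0.35, 0.09 and 0.10 in Tg. The sets did not overlap, and the effect went from 1.71-fold in DMSO to 1.09-fold in Tg (log2 difference -0.64, SE 0.08, limma adjusted p = 0.023). The adjusted p was 0.102 without DMSO library 4, 0.109 without DMSO library 5 and 0.476 with the replicate number as a block. The effect of rs34343698 went from 1.67-fold to 1.2-fold (log2 difference -0.48, SE 0.11, limma adjusted p = 0.359) and that of rs781914 from 1.69-fold to 1.37-fold (log2 difference -0.30, SE 0.08, limma adjusted p = 0.437). When SNPs with no active allele were left out of the test, 5 members were called, beside 3.83% of those SNPs: these 3, and rs76846759 and rs2049286 with larger effects in Tg. That filter used activity in the same DMSO and Tg libraries, and members that passed it had an active alternate allele. Its calls are thus no independent support. Over all SNPs, rs76846759 and rs2049286 were not called (limma adjusted p = 0.359 and 0.457).

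The member rs9434444 lies 991 bases from another, rs10875179, so their elements shared no sequence. Their alternate alleles moved in opposite directions between cultures: that of rs9434444 was lower in Tg, and that of rs10875179 was higher. Other elements with known positions lay near some members. The element of rs599453 shared 105 bases with that of rs1713547, and its alleles had mean activities of -0.03 ± 0.12 and 0.06 ± 0.13 (SD, n = 5) in DMSO. The reference allele of rs1713547 was near them at 0.13 ± 0.13, and its alternate allele had 0.89 ± 0.09. The closest other elements to rs13130845, at 729 and 936 bases, had DMSO means between -0.19 and 0.05, beside -0.07 ± 0.12 for its A allele and 2.32 ± 0.09 for its C allele. Other neighbours were above the median sequence with both alleles. The element of rs2332541, 636 bases from rs76846759, had 0.27 ± 0.06 and 0.43 ± 0.13 in DMSO and 0.56 ± 0.14 and 0.74 ± 0.17 in Tg. The element of rs7585060, 766 bases from rs13405776, had 0.31 ± 0.15 and 0.23 ± 0.17 in DMSO and 0.51 ± 0.16 and 0.40 ± 0.29 in Tg.

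Other SNPs of the same association signals were tested in DMSO beside the members, where 4.03% of all SNPs were called with the alternate allele higher and 4.54% with the reference allele higher by limma. These calls include elements with no active allele, whereas the study tested allelic effects only for active sequences. Among the other 15 SNPs of the WFS1 signal, 2 were called by limma and 2 by edgeR, and the largest effect of any was -0.60 (SE 0.26, limma adjusted p = 0.279) against 2.39 for rs13130845. At PEX5L 2 of 7 others were called by limma and 1 by edgeR, the largest at -0.21 (SE 0.05, limma adjusted p = 0.0803) against 3.37 for rs17748864. Only 1 of those 7 had an active allele in DMSO, and 0 were called in Tg. At the ADCY5 signal 1 of 8 others was called by limma, rs60054445 with -0.63 (SE 0.10, limma adjusted p = 0.0276), and 0 by edgeR, where 1 had an unadjusted p under 0.05. In the RGS7 signal 1 of 23 others was called by limma and 1 by edgeR. The largest effect there was that of rs12073009 with 0.80 (SE 0.09, limma adjusted p = 0.00684), beside the 0.76 of rs1713547. In the signal of rs12201218, 1 of 40 others was called by limma and 1 by edgeR. In the THADA signal 0 of 38 others were called by limma and 0 by edgeR, with 1 and 2 at an unadjusted p under 0.05. There rs6544666 had a larger measured effect than the 0.92 of rs13405776, with an SE of 0.78 (limma adjusted p = 0.356). At KBTBD8 0 of 6 others were called by limma and 0 by edgeR, with 2 and 2 at an unadjusted p under 0.05. The SNP with the largest value in each signal was chosen after the values were seen.

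The name of 1 member, rs1824872, also carries a second pair of sequences in the table, marked alt-1, and it was compared after its values were seen. For some islet caQTLs with a pair of close SNPs the study made every combination of the alleles, and whether the mark stands for such a combination is not stated in the sources used here. In the first pair the alternate allele read 0.62, 0.54, 0.58, 0.80 and 0.73 in DMSO. In the second pair it read 0.04, 0.02, 0.14, 0.10 and 0.00, near the reference alleles of both pairs. The 2 sequences with the same allele of rs1824872 did not overlap and differed by 0.60 on the log2 scale (SE 0.06, limma adjusted p = 0.00206), in a test of 366 such sequences of which 6.28% were called. The reference sequences of the pairs differed by 0.05 (SE 0.07, limma adjusted p = 0.759). In Tg the alternate sequences differed by 0.34 (SE 0.10, limma adjusted p = 0.169, with 2.46% called). In standard culture, where the second pair did not enter the rule, its allelic difference was -0.01 ± 0.13 (SD, n = 5).

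The elements with the alleles exchanged in the rule numbered 32 and are the most like set. Their reference allele reached the upper cut and their alternate allele stayed at or under the lower cut. By limma 29 of them had the reference allele higher in DMSO, beside 4.54% of SNPs, and 23 in Tg, beside 1.18%, and by edgeR 30 (4.74%) and 26 (2.2%). Set beside the 28 and 23 members by limma, the 2 directions held at similar counts outside the culture that chose them. Reference alleles of that set were higher in Tg for 3 and lower for 2, beside 5 and 3 alternate alleles of the members. Over all sequences 2.04% were higher and 4.17% lower. The allelic effect differed between cultures for 1 in each set, beside 0.138% of SNPs.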

How the data were processed

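Barcode counts per sequence were deposited by the authors as raw counts, summed over barcodes, for standard culture and, in 2 sequencing runs, for DMSO, Tg and their plasmid libraries. DESeq2 is named in the submitters' notes. Here the runs were summed by library. Members and motif lists were chosen with earlier results of these data known. Tests kept sequences averaging 10 or more counts per plasmid library. For each library the allelic effect was log2 activity of the alternate allele less that of the reference allele, with 1 added to RNA and mean plasmid counts, fitted with limma 3.58.1 over all SNPs (FDR 10%). This fit takes the plasmid mean as known and called too many unchanged SNPs in simulated data, so an edgeR 4.0.16 model with allele by RNA interaction stands beside it. Activity and Tg against DMSO used edgeR glmQLFit (robust, TMM, FDR 1%), with DESeq2 1.42.0 as an alternative in R 4.3.3. The study calls its DMSO and Tg experiments paired, but the sources used here do not say that equal numbers mark a shared day, so the replicate block is an alternative.

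With the exception of 3 members whose individual results are not reported here and which all counts include, SNPs were named by this rule: the 10 largest differences in standard culture, the largest effects and Tg changes among those called, members nearest the thresholds, and those with a window or a listed locus. Positions are hg19. Read counts carry no molecular identifiers, so replicate spread sets the errors. Windows were joined from motif match columns and probe sequences of the study, and those of 5 members are shown.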

Additional observations from a re-analysis of the deposited data

Results flagged for a closer look

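For rs9434444 the allelic effect differed between Tg and DMSO, by -0.64 on the log2 scale (limma adjusted p = 0.023). The call was lost with the replicate number as a block, and without DMSO library 4 or 5. Among 93 groups of 5 libraries, 2 allelic differences had 1 library standing apart from the other 4, and chance sets about 1 in 20 groups apart. In Tg, library 3 gave rs9434444 a difference of 0.35, while the others lay between 0.03 and 0.10 (gap over range 0.78). Without it the difference between the cultures was -0.70. In DMSO, library 2 gave rs13405776 a difference of 0.73, while the others lay between 0.93 and 1.01 (gap over range 0.71).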

How the results depend on the processing

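Of 49 counts recomputed under alternatives that kept every library, 43 stayed within 1.5 times. With total counts in place of TMM, 16 alternate alleles were active in DMSO, 11 in Tg, and 1 was higher in Tg. With run 2 only, 3 were higher in Tg. Unequal allelic effects in Tg and DMSO were called for 5 members among SNPs with an active allele in the same libraries, and for 0 with the replicate block. Under that block 6 alternate alleles were higher and 3 lower in Tg. Same-numbered libraries deviated together with correlations of 0.00 to 0.06, and 4 of 5 DMSO libraries correlated best with their own number. Leaving out 1 library gave 25 to 26 members with the alternate allele higher in DMSO, 17 to 20 in Tg, 30 to 30 and 29 to 30 active alleles, 2 to 6 alternate alleles higher and 3 to 4 lower in Tg, and 0 to 1 unequal effects. The rule found 30 to 33 elements without 1 standard library, and 30 with all libraries, of which 29 were members. Of 320 allelic effects with 1 library left out, 38 lost their call. The effect of 1 thinly represented member in DMSO ranged from -0.02 to 0.23 with 1 DMSO library left out, and turned to -0.02 without library 4 and -0.01 without library 5. Of 495 under other alternatives, 12 lost and 15 gained a call. The cause was not tested.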
